A study of Mus musculus with 18 samples.

Results

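Of the 14451 genes in a mouse liver transcriptome sampled around the day, 10 are described here, namely 9 chaperone and co-chaperone genes that heat shock factor 1 (HSF1) is known to activate and Hsf1 itself. They were chosen by name, as the rows for Hspa1a, Hspa1b, Hspa8, Dnajb1, Bag3, Hsp90aa1, Hsph1, Hspd1, Hspe1 and Hsf1, with their profiles in these livers already known. All 10 were found, and all 10 were above 0 reads in at least 1 liver and entered every test. Since the profiles over time chose them, their values over time are given as a description, and the counts of members called are set beside the share of all genes called without anything being read from them.

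The livers came from wild-type (WT) male mice aged 8 to 9 weeks under 12 h of light and 12 h of dark, and were taken whole at ZT1, ZT5, ZT9, ZT13, ZT17 or ZT21, where ZT (zeitgeber time) counts hours after lights on. For each time point 5 mice were used and the 3 with the best RNA were sequenced as polyA RNA, which gives 6 groups of 3 and 18 livers from 18 animals. Feeding, body temperature and activity were not used here, and each time of day was sampled on a single cycle. The mice were intact and untreated, so the 6 groups differ by time of day alone as far as the labels say.

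Heat shock proteins are chaperones that hold unfolded proteins and help them fold. HSF1 is kept inactive in the cytosol and, when unfolded proteins accumulate or temperature rises, it forms trimers, enters the nucleus and binds heat shock elements, which are alternating copies of the letters GAA and TTC in the promoters of its targets. HSF1 itself is mostly controlled at the protein level, and in liver its binding to DNA is known to follow the daily cycle of temperature and feeding.

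The promoters of the inducible HSP70 pair and of the HSP60 and HSP10 pair are shown because they hold the heat shock element letters and because each pair is close in sequence or position, and that of Hsph1 because it holds the shorter form of the letters searched. Sequences are from RefSeq on GRCm38.p6, 5′ to 3′ on the gene's strand, in lower case with the matched letters in capitals. The 250 bases before the start of Hspa1b (chr17:34959239-34959488, minus strand) and Hspa1a (chr17:34972157-34972406, minus strand) read as follows.
Hspa1b: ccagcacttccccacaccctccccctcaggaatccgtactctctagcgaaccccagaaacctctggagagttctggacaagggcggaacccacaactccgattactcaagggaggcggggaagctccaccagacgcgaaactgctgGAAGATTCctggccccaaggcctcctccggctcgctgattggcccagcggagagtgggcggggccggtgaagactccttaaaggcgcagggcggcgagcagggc
Hspa1a: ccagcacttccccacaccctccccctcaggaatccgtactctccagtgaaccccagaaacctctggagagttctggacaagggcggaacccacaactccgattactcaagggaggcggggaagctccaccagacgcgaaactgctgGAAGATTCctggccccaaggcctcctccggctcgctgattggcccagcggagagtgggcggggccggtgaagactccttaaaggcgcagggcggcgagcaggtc
They differ at 3 of 250 bases and are 98.8% identical, and in each the matched letters lie from 104 to 97 bases before the start. A stretch of 30 bases is shown for Hspe1 (chr1:55088053-55088082, plus strand), for Hspd1 (the same bases on the minus strand) and for Hsph1 (chr5:149636351-149636380, minus strand).
Hspe1: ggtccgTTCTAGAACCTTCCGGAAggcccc
Hspd1: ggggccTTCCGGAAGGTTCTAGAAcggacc
Hsph1: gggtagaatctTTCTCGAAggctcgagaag
Hspd1 and Hspe1 face away from each other on chromosome 1, and the same element lies from 89 to 72 bases before the start of Hspe1 and from 144 to 127 bases before a start of Hspd1.

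The letters searched were GAANNTTCNNGAA and TTCNNGAANNTTC for 3 units and GAANNTTC and TTCNNGAA for 2 units, where N is any base. The windows were the 250 bases before each start. Both strands were searched, and the 3-unit letters contain the 2-unit letters. Promoters were found for 7 of the 10 genes, and those of Hspa8, Hsp90aa1 and Hsf1 were not analysed here. A gene was counted if any of its windows held the letters. The 3-unit letters were in 2 of the 7, Hspd1 and Hspe1, which share 1 element, while 0.514% of the 27025 genes with a promoter held them. Hspd1 also had another start, at the end of its gene coordinates, whose window (chr1:55088244-55088493) held neither set of letters. The 2-unit letters were in 5 of the 7, adding Hsph1 and the nearly identical promoters of Hspa1a and Hspa1b, against 14.6% of genes. Of 21 further known HSF1 targets described below, 18 had a promoter. The 3-unit letters were in 0 of these 18 and the 2-unit letters in 5. Neither set of letters was in the windows of Dnajb1 and Bag3. A match is a description of the letters. Only exact letters were counted, so an element with a changed base, or outside the 250 bases, was missed. The absence of a match is therefore not the absence of an element. The genes with the 3-unit letters, Hspd1 and Hspe1, were among those of smallest daily change, as given below. A relation between the letters and the size of the daily change was not tested.

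Depth ranged from 10268168 to 23242842 estimated reads on genes per liver. The deposited values are estimated counts plus 0.5 reads, scaled by a factor for each liver on a linear scale, and are called normalized values below. Hepatocyte markers (7 of 7 measured) summed to between 70876 and 101624, so the tissue carried the markers of its label. By 4 clock genes (Arntl, Nr1d1, Per2 and Dbp), 17 of 18 livers were nearest to the other livers of their own time point, whereas ZT5 replicate 3, which was also the deepest library, was nearest to ZT9. Counts of calls in the 10 genes, and several of those in the lists, are also given without it. In whole tissue, fewer cells of a type and less RNA per cell cannot be told apart.

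All 10 genes had their highest mean in the dark phase, 7 at ZT13 (18.8% of the 14449 genes tested) and 3 at ZT17 (16.9%), against 35.7% of all genes with a highest mean at either time. The mean was higher at ZT13 than at ZT9 in 10 of 10, against 7167 of the 14449 genes tested. In 9 of 10 all livers at ZT13 were above all livers at ZT9, against 14.5% of all genes. The peak-to-trough ratio, which is the highest of a gene's time point means divided by the lowest, ran from 1.22 for Hspd1 to 16.2 for Hspa1b, was at least 2 in 7 of 10 (21.7% of all genes) and had a median of 3.35 against 1.48 over all genes. The limma F test over the 6 times called 9 of 10 (29.2% of all genes), with Hsf1 as the exception, and 8 of 10 without ZT5 replicate 3, when Hspd1 was not called either.

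**Figure D1:**
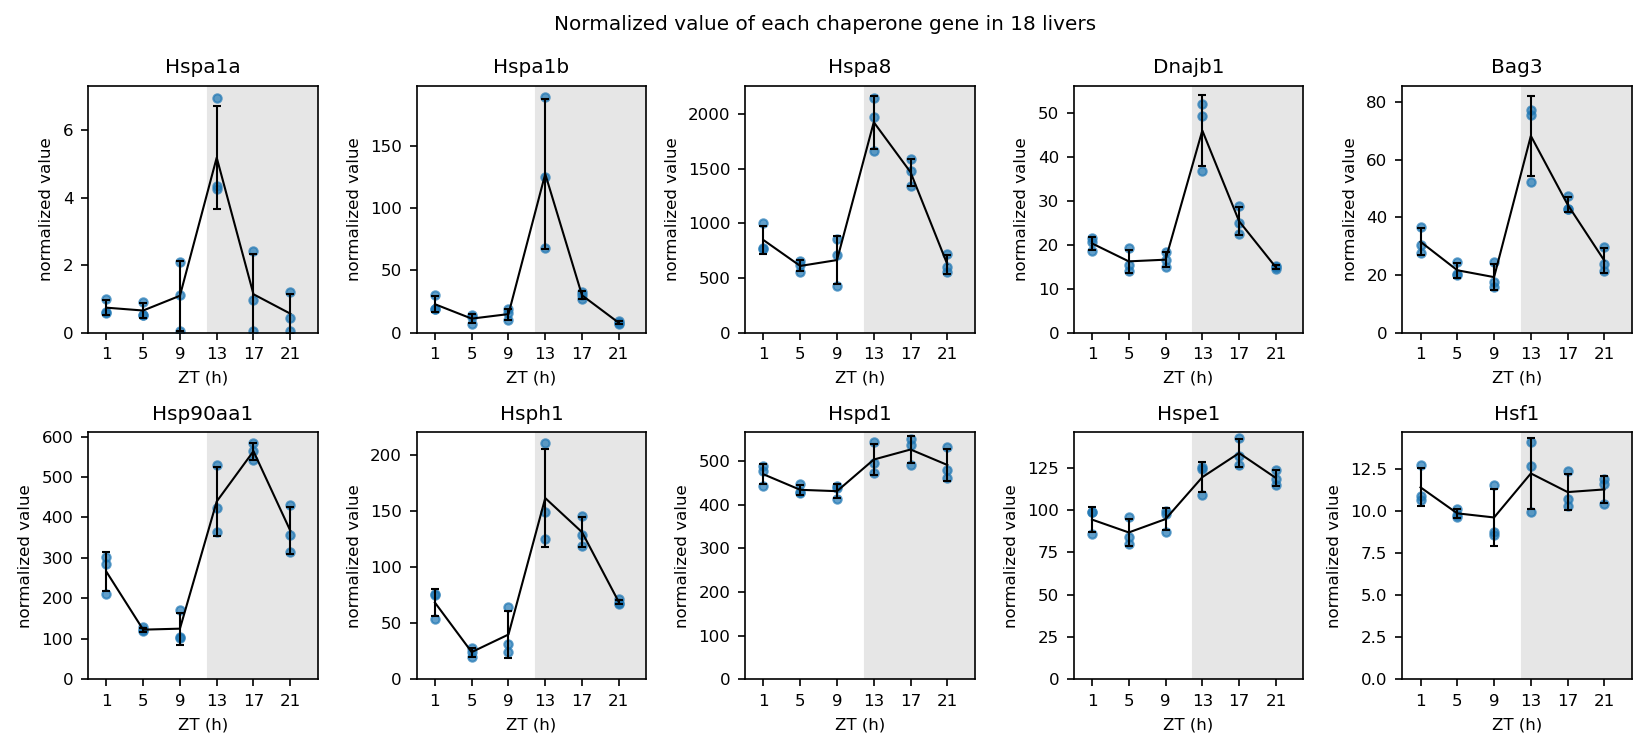
Normalized value (y axis, from 0) of each of the 10 genes against ZT in hours (x axis), with a point for each of the 18 livers, the black line joining the time point means, bars of 1 SD (n = 3) and the dark phase shaded. Hspa1b reached between 68.0 and 189 at ZT13 and stayed at or below 33.0 at the other times, while Hspd1 stayed between 413 and 552 throughout.

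Hspa1b (ENSMUSG00000090877, chr17:34956436-34959238 on GRCm38), a stress-inducible cytosolic HSP70, had the largest ratio. Its normalized values were 19.2, 19.2 and 30.1 at ZT1, then 7.28, 12.3 and 14.03 at ZT5, and 15.8, 9.996 and 18.8 at ZT9. At ZT13 they were 126, 189 and 68.0, followed by 30.3, 33.0 and 26.6 at ZT17 and 9.17, 7.72 and 6.68 at ZT21. The 3 livers at ZT13 were each above all 15 others, but they also spread widely among themselves. The mean went from 14.9 ± 4.49 at ZT9 to 128 ± 60.6 at ZT13 (SD, n = 3), 8.58 times as high, and at ZT17 it was 0.235 of that at ZT13. The order of the means was ZT13, ZT17, ZT1, ZT9, ZT5 and ZT21, in which the livers of ZT17 and ZT1, of ZT9 and ZT5, and of ZT5 and ZT21 overlapped. From ZT21 to ZT1, at the change from dark to light, the mean was 2.91 times as high at ZT1 with no overlap, which 8.42% of all genes showed in that direction.

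Hspa1a (ENSMUSG00000091971, chr17:34969190-34972156), which encodes nearly the same HSP70 protein, was close to the detection limit. It was at 0 reads in 3 livers, at ZT9, ZT17 and ZT21, and reached at most 84.5 estimated reads. Its normalized values at ZT13 were 6.97, 4.26 and 4.35, above every other liver, of which the highest was 2.43 at ZT17. All other neighbours in the order of its time points overlapped. Its peak-to-trough ratio was 9.23 with all livers, and 21.7 without ZT21 replicate 2, so it rests on few reads. Of the stretches of 50 bases in its longest coding transcript, 66.3% were also found in other genes, chiefly Hspa1b, and 62.3% of those of Hspa1b were found in Hspa1a, so the division of reads between them is uncertain. The sum of both was 15.96 ± 4.91 at ZT9 and 133 ± 60.5 at ZT13 (SD, n = 3), close to the values of Hspa1b alone.

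Hspa8 (ENSMUSG00000015656, chr9:40800984-40810087) encodes HSC70, the HSP70 made in all cells without stress. It was the most abundant of the 10 per kb of transcript, at a mean of 428 normalized units per kb against 12.7 for Hspa1b. Its normalized values at ZT13 were 2145, 1972 and 1663, and at ZT17 they were 1589, 1475 and 1342. The 12 livers of the other times lay between 426 and 1000.3, so all 6 livers of ZT13 and ZT17 were above the rest, as in 1.12% of all genes. The mean at ZT13 was 2.90 times that at ZT9, and in the order ZT1, ZT9, ZT21 and ZT5 of the lower means, the livers of neighbours overlapped. Of its 50-base stretches, 74.8% were shared with other genes, of which 1 of 13 is in the table, and mostly with a processed pseudogene that is not, so its level depends on how those reads were assigned.

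Inducible HSP70 made up a changing part of the cytosolic HSP70 transcripts. Per kb of transcript, Hspa1a and Hspa1b together were 5.00%, 7.72% and 3.57% of the sum with Hspa8 in the livers at ZT13. In the 15 other livers they were between 0.943% and 2.58%. Hspa8 thus remained the main HSP70 transcript in every liver, including those at ZT13.

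The co-chaperones of HSP70 also had their highest means at ZT13. Dnajb1 (ENSMUSG00000005483, chr8:83608193-83612653), the HSP40 that delivers clients to HSP70 and stimulates its ATPase, had normalized values of 16.5, 14.9 and 18.4 at ZT9. At ZT13 they were 52.0, 49.2 and 36.8, and at ZT17 they were 24.9, 28.7 and 22.4. The other 9 livers were between 13.99 and 21.6, so the 6 livers of ZT13 and ZT17 stood above all others. The order of means was ZT13, ZT17, ZT1, ZT9, ZT5 and ZT21, and overlap was seen between ZT9 and ZT5 and between ZT5 and ZT21.

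Bag3 (ENSMUSG00000030847, chr7:128523616-128546981) encodes a nucleotide exchange factor of HSP70 that directs clients to autophagy. Its normalized values were 17.5, 15.9 and 24.3 at ZT9, 75.5, 77.0 and 52.2 at ZT13 and 47.2, 42.9 and 43.0 at ZT17, and the other 9 livers were between 20.04 and 36.6. The 6 livers of ZT13 and ZT17 were again above all others, and the mean at ZT13 was 3.55 times that at ZT9. Among the lower times, ZT1, ZT21, ZT5 and ZT9, neighbouring livers overlapped.

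Hsph1 (ENSMUSG00000029657, chr5:149614287-149636376) encodes HSP110, another exchange factor of HSP70. Its normalized values were 24.2, 20.04 and 28.2 at ZT5, where it was lowest, and 149, 211 and 125 at ZT13, where it was highest. At ZT17 they were 146, 129 and 119, overlapping ZT13. They were 54.1, 75.3 and 75.9 at ZT1 and 68.1, 71.4 and 67.3 at ZT21, 2 times whose livers overlapped. ZT9 replicate 1 had 64.1, against 24.5 and 31.0 in the other livers of that time. With all livers the peak-to-trough ratio was 6.71, below those of Hspa1a and Hspa1b and above those of the other 7 genes.

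Hsp90aa1 (ENSMUSG00000021270, chr12:110690605-110702728), the inducible form of cytosolic HSP90, peaked later. Its normalized values were 121, 128 and 119 at ZT5, 170, 103 and 101 at ZT9 and 423, 531 and 365 at ZT13. They were 585, 542 and 565 at ZT17, above all 15 other livers, then 315, 357 and 429.9 at ZT21 and 211, 285 and 302 at ZT1. ZT13 and ZT21 overlapped, as did ZT9 and ZT5, while ZT21 was above ZT1 in all livers. Of its 50-base stretches, 58.5% were shared with other genes, none of them in the table and chiefly a processed pseudogene. Per kb, Hsp90aa1 was between 10.3% and 15.8% of cytosolic HSP90 transcripts (with Hsp90ab1, the constitutive form) in the livers of ZT5 and ZT9, between 21.7% and 25.3% at ZT13 and between 25.7% and 26.7% at ZT17.

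**Figure D2:**
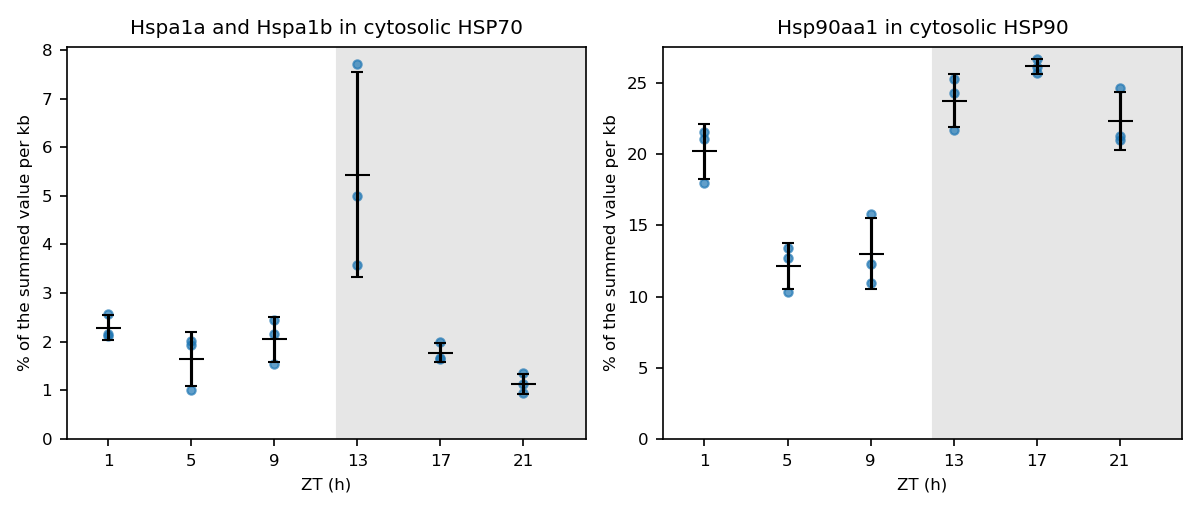
Share of the summed normalized value per kb of transcript (y axis, %, from 0) held by Hspa1a and Hspa1b among cytosolic HSP70 genes (left, with Hspa8) and by Hsp90aa1 among cytosolic HSP90 genes (right, with Hsp90ab1), against ZT in hours, with a point per liver and the mean with 1 SD (n = 3). The HSP70 share is above 3.5% only at ZT13, while the HSP90 share stays at 21.0% or more from ZT13 to ZT21.

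The mitochondrial chaperonin pair had the smallest ratios among the chaperones. Hspd1 (ENSMUSG00000025980, chr1:55077835-55088243), which encodes HSP60, went from 438, 443 and 413 at ZT9 to 472, 543 and 496 at ZT13 and 537, 552 and 491 at ZT17. The livers of all neighbours in the order of its time points overlapped, and the peak-to-trough ratio was 1.22. Hspe1 (ENSMUSG00000073676, chr1:55088132-55091307), which encodes the HSP10 lid of HSP60, went from 99.3, 97.5 and 87.1 at ZT9 to 124, 125 and 109 at ZT13 and 127, 143 and 132 at ZT17. Its ratio was 1.54, and its lowest value from ZT13 to ZT21, 109, was above its highest from ZT1 to ZT9, 99.3. The 44.8% of 50-base stretches shared with other genes in each of them limits how closely their levels can be compared.

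Hsf1 (ENSMUSG00000022556, chr15:76477422-76501913), the factor itself, had normalized values of 11.5, 8.71 and 8.56 at ZT9 and 14.1, 12.7 and 9.91 at ZT13. Its other livers lay between 9.64 and 12.7. The livers of ZT9 and ZT13 overlapped, and the peak-to-trough ratio was 1.27. From ZT9 to ZT13 Hsf1 differed by 0.32 ± 0.14 (SE, log2; limma unadjusted p = 0.0315, adjusted p = 0.148). Of the 10 genes it alone was called by none of the limma and JTK tests, and its level was 5.18 normalized units per kb.

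**Figure D3:**
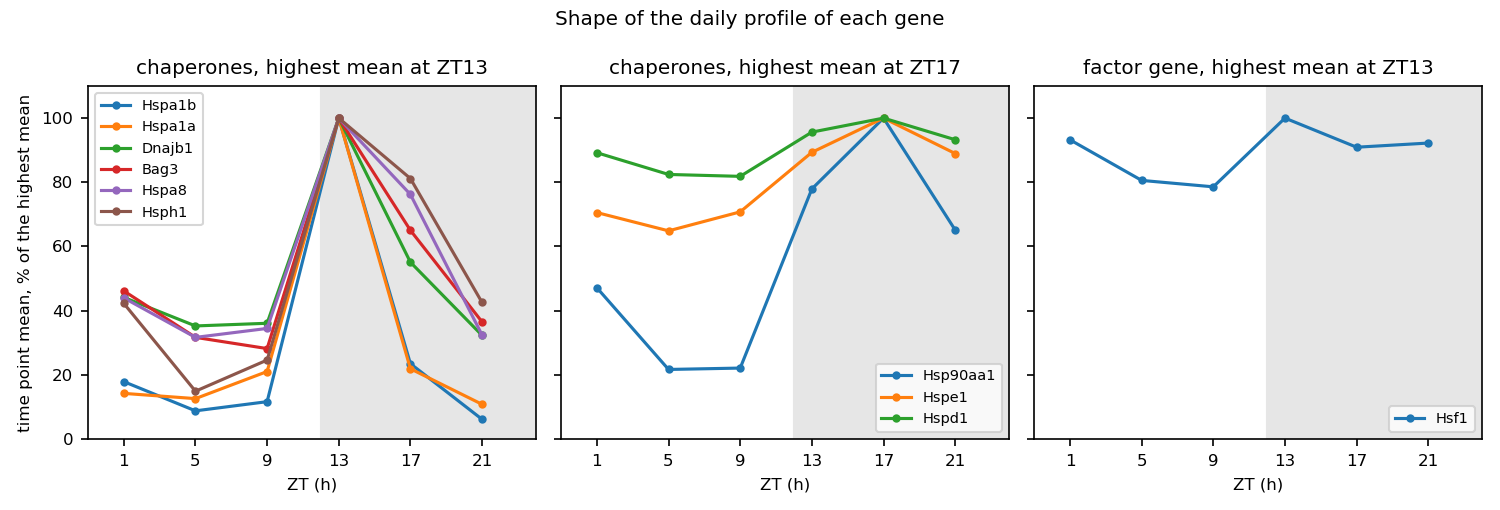
Time point mean of each gene as a percentage of its own highest time point mean (y axis) against ZT in hours (x axis), with the dark phase shaded, for the chaperones highest at ZT13 (left), those highest at ZT17 (middle) and Hsf1 (right). At ZT17 Hspa1b stands at 23.5% of its peak, Dnajb1 at 55.1%, Bag3 at 65.0%, Hspa8 at 76.2% and Hsph1 at 81.2%.

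The means of all 10 genes were higher at ZT13 than at ZT9, while from ZT13 to ZT17 some were lower and others higher. By ZT17, the means of Hspa1a and Hspa1b were at 21.9% and 23.5% of their peak, those of Dnajb1 and Bag3 at 55.1% and 65.0%, and those of Hspa8 and Hsph1 at 76.2% and 81.2%, while Hsp90aa1 and Hspe1 were higher than at ZT13 in all livers. By ZT21, Hspa1b, Dnajb1 and Hspa8 were at 6.16%, 32.3% and 32.4% of their peak, and Hsp90aa1 was still at 65.1%. The differences between genes in the steepness of the fall were not tested.

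Of the contrasts between adjacent times in the limma fit (adjusted p under 0.05 over 14449 genes), ZT9 to ZT13 called 8 of the 10 genes higher and 0 lower, against 5.7% and 5.41% of all genes. The 2 not called were Hspd1 (limma unadjusted p = 0.00879) and Hsf1 (limma unadjusted p = 0.0315). The share of all genes at an unadjusted p under 0.05 is not given here or below. The shares at an adjusted p do not apply to counts of genes at that threshold, and nothing is read from those counts. The count was 6 to 8 with each liver left out, losing Hspa1a, Hspe1 or both, and 7 with a pseudocount of 0.1, losing Hspa1a. On the log2(value + 1) scale the differences ran from 0.22 ± 0.08 (SE) for Hspd1 to 2.94 ± 0.30 (SE) for Hspa1b, with a median of 1.63 against −0.003 over all genes. From ZT13 to ZT17, 3 genes were called lower (0.969% of all genes), namely Hspa1a, Hspa1b and Dnajb1. Hspa1a lost this call without ZT13 replicate 1, 2 or 3, without ZT17 replicate 1 or 3, and without the trend. From ZT17 to ZT21, 4 were called lower (0.99%), namely Hspa1b, Hspa8, Dnajb1 and Bag3. Bag3 lost this call without ZT17 replicate 1, ZT21 replicate 2 or ZT21 replicate 3. From ZT1 to ZT5, Hsp90aa1 and Hsph1 were called lower (3.19%). The same fit called 0 of the 10 from ZT5 to ZT9, where 1.06% of all genes were called higher and 1.25% lower, and 0 from ZT21 to ZT1 (0.09% and 0.111%), and 1 and 5 of the 10 had an unadjusted p under 0.05 there. It also called 0 higher from ZT1 to ZT5 (3.12% of all genes), ZT13 to ZT17 (1.11%) and ZT17 to ZT21 (1.31%), with 0, 1 and 0 at an unadjusted p under 0.05 in that direction. Leaving out ZT5 replicate 3 gave 8 calls from ZT9 to ZT13, 3 from ZT13 to ZT17, 4 from ZT17 to ZT21, 2 from ZT1 to ZT5 and 0 in the other 2 steps.

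The 3 livers of a time point did not overlap those of the next in a number of these steps. From ZT13 to ZT17 all livers were lower in Hspa1a, Hspa1b, Hspa8, Dnajb1 and Bag3, which is 5 of 10 (9.3% of all genes), and higher in Hsp90aa1 and Hspe1, which is 2 of 10 (9.63%). From ZT17 to ZT21 all livers were lower in 7 of 10 (10%), with Hspa1a, Hspd1 and Hsf1 as the exceptions, and higher in 0 (10.5%). From ZT21 to ZT1, across the return of light, Hspa1b, Hspa8 and Dnajb1 were higher in all livers (8.42%) and Hsp90aa1 and Hspe1 were lower (7.91%). From ZT1 to ZT5, Hspa1b, Hspa8, Bag3, Hsp90aa1, Hsph1 and Hsf1 were lower in all livers (12.6%) and 0 were higher (12.8%). Without ZT5 replicate 3, 8 of 10 were lower in all livers, adding Hspa1a and Dnajb1, against 17% of all genes. From ZT5 to ZT9 the livers of all 10 genes overlapped, while 8.01% of all genes were higher and 8.83% lower without overlap, and without ZT5 replicate 3 Hsph1 alone was higher in all livers (12.7%). From ZT9 to ZT13, 0 of 10 were lower in all livers (13.3%).

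A cosine of 24 h and a cosine of 12 h were fitted together, since a short peak within the day holds part of its shape in the 12 h term. The 24 h term was called in 9 of the 10 genes (38.4% of all genes) and the 12 h term in 6 (1.22%), namely Hspa1b, Hspa8, Dnajb1, Bag3, Hsp90aa1 and Hsph1, with 9 and 6 also without ZT5 replicate 3. Hsp90aa1 was not called for the 12 h term without ZT1 replicate 2 or ZT1 replicate 3. In Hspa1b and Dnajb1 the 12 h amplitude was the larger, at 1.28 against 1.16 and at 0.534 against 0.522 on the log2(value + 1) scale. JTK, a rank test against cosine orders of 20 to 28 h, called 4 genes (14.1%), Hsp90aa1, Hsph1, Hspd1 and Hspe1, and without ZT5 replicate 3 it called 3. With equal cosines taken as 1 group it called 7, adding Hspa1b, Hspa8 and Bag3. The share of all genes called under that setting is not given here, and the 14.1% does not apply to it.

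Deviations of single livers from the mean of their time point were not what chose the genes, so their relations within time points could be tested. Of the 45 pairs, 36 had a Pearson r above 0. None passed a permutation test (100000 permutations of livers within time points, two-sided) after adjustment over the 45 pairs, 0 by Pearson and 0 by Spearman, and 6 and 7 pairs had an unadjusted p under 0.05. The smallest p was that of Hspa1b with Dnajb1, the HSP70 and its HSP40, at r = 0.821 (permutation p = 0.00227, adjusted p = 0.102) and rho = 0.769 (permutation p = 0.00423, adjusted p = 0.19) over 18 livers, and r was 0.781 without the 2 livers farthest from the median of Hspa1b. Hsp90aa1 with Hsph1 had r = 0.819 (permutation p = 0.0188, adjusted p = 0.282) and rho = 0.666 (permutation p = 0.0325, adjusted p = 0.28), and r was 0.639 without the 2 livers farthest from the median of Hsp90aa1. Of Hspa1b, Hspa8, Dnajb1, Bag3, Hsp90aa1 and Hsph1, the genes called for the 12 h term, all 6 were below the time point mean in ZT13 replicate 3. All 6 were above it in ZT13 replicate 2, and below it in ZT1 replicate 1 and ZT9 replicate 2. Hspa1a, Hspd1, Hspe1 and Hsf1 went the same way in these livers with some exceptions. Hspa1a was below in ZT13 replicate 2 (−0.207, log2) and Hspd1 above in ZT1 replicate 1 (0.023). In ZT9 replicate 2, Hspa1a (0.162), Hspd1 (0.040) and Hspe1 (0.045) were above. These signs were not tested. The deviation of Hspa1b and that of log2 library depth had r = 0.435. For Bag3 it was 0.373, for Dnajb1 0.347, for Hsph1 0.281, for Hspa8 0.056 and for Hsp90aa1 0.024. It was below 0 for Hspa1a, Hspd1, Hspe1 and Hsf1, and lowest for Hspe1 at −0.285. The part of depth in these relations was not tested.

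**Figure D4:**
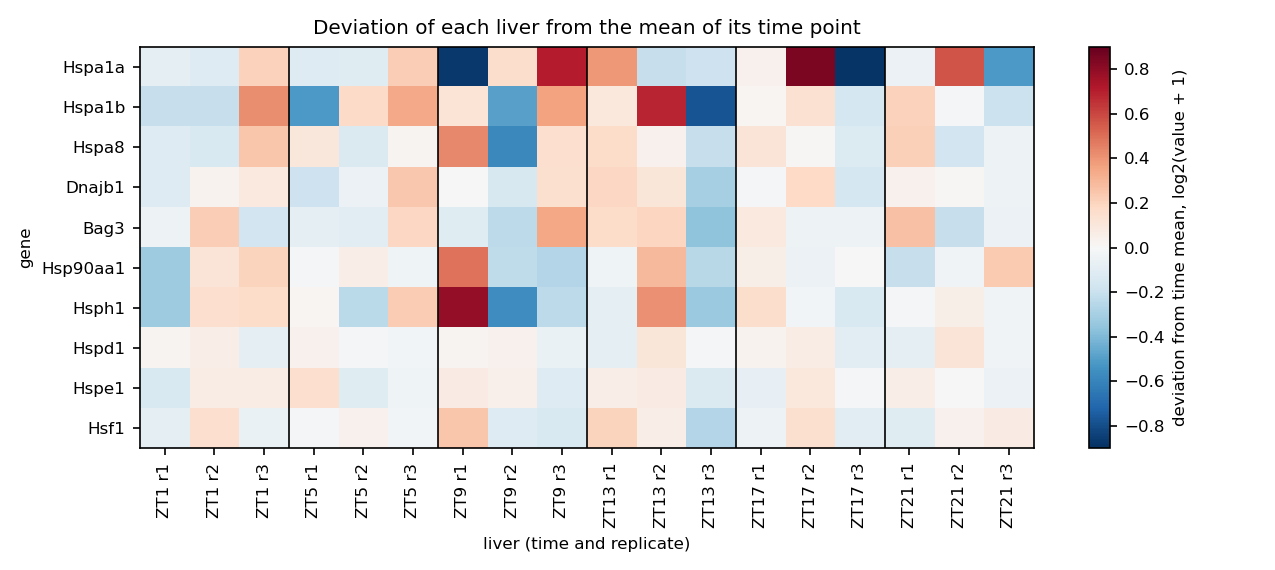
Deviation of each liver (x axis, time and replicate number) from the mean of its time point for each gene (y axis), with the colour giving the difference in log2(value + 1), red above and blue below the mean, and black lines between time points. In ZT13 replicate 3 Hspa1b, Hspa8, Dnajb1, Bag3, Hsp90aa1 and Hsph1 are all below their means, and ZT9 replicate 1 is high in Hsph1 and Hsp90aa1.

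The rest of the chaperone system was read from lists written from textbook knowledge of each group, with earlier results of these livers known. Of 21 further genes known as HSF1 targets, 16 were called over the 6 times by the F test (29.2% of all genes), 13 were called higher (5.7%) and 1 lower (5.41%) from ZT9 to ZT13, and 7 were called for the 12 h term (1.22%), namely Dnaja1, Dnajb4, Ahsa1, Chordc1, Stip1, Fkbp4 and Cacybp. Their median difference from ZT9 to ZT13 was 0.73 (log2), against −0.003 over all genes. The mean was higher at ZT13 than at ZT9 in 20 of 21, against 7167 of the 14449 genes tested. The highest mean was at ZT13 or ZT17 in 19 (35.7% of all genes). Stip1, the HOP adaptor that passes clients from HSP70 to HSP90, rose from 58.4 ± 10.7 at ZT9 to 125 ± 13.3 at ZT13 (SD, n = 3; limma adjusted p = 1.26e-05). Hspb1, a small heat shock protein that holds unfolded proteins without ATP, rose from 8.56 ± 3.17 to 22.2 ± 8.39 (limma adjusted p = 0.00591) and was highest at ZT17 with 41.8 ± 11.1 (SD, n = 3). Hspa4l, another HSP110, rose from 21.8 ± 0.928 to 54.2 ± 13.7 (SD, n = 3; limma adjusted p = 3.1e-05). Chordc1, an HSP90 co-chaperone, rose from 33.3 ± 8.33 to 69.9 ± 7.25 (SD, n = 3; limma adjusted p = 9.35e-05). Dedd2 fell, with a difference of −0.49 ± 0.14 (SE, log2; limma adjusted p = 0.0258). From ZT17 to ZT21, 5 were called lower (0.99% of all genes), namely Dnaja1, Dnajb4, Chordc1, Stip1 and Fkbp4. The count for the 12 h term was 4 without ZT1 replicate 2 or without ZT1 replicate 3. Without ZT5 replicate 3, 15 were called by the F test, 5 for the 12 h term and 14 from ZT9 to ZT13 in either direction.

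**Figure D5:**
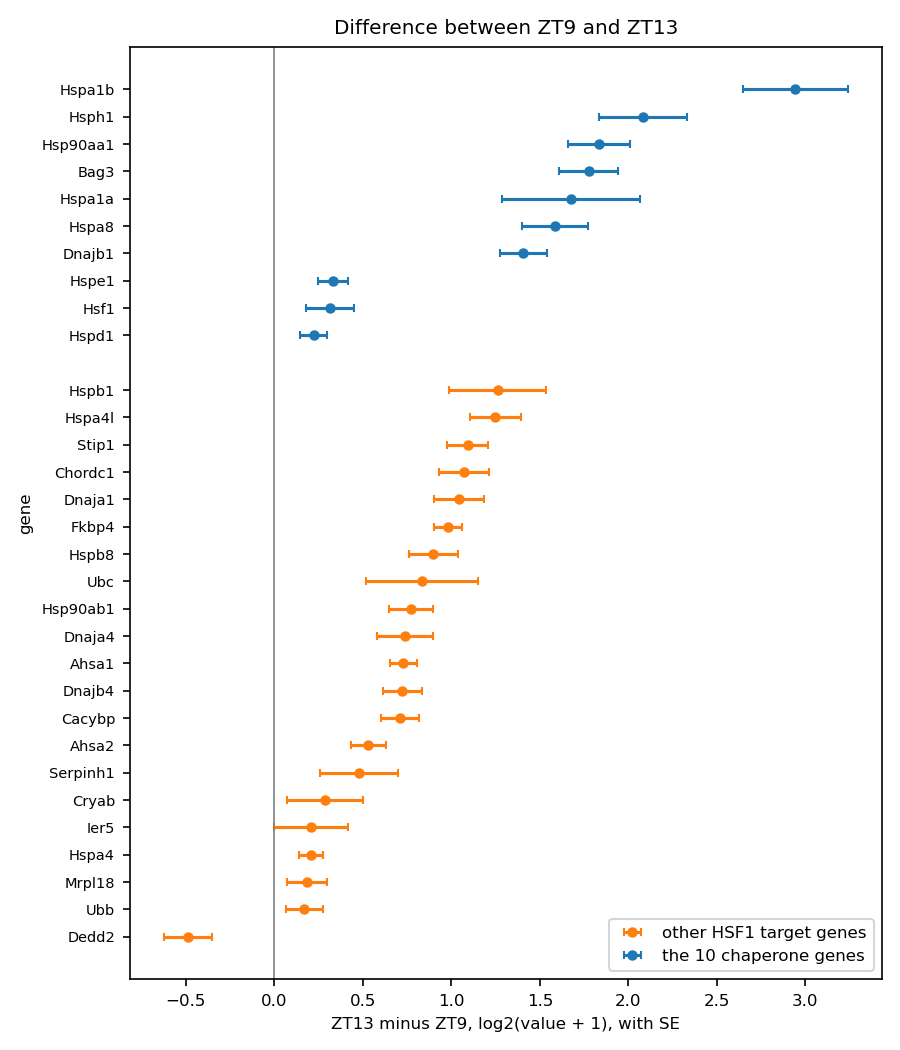
Difference between ZT13 and ZT9 in log2(value + 1) from the limma fit (x axis, bars of 1 SE) for the 10 genes (blue) and 21 further HSF1 targets (orange), ordered within each set. All 10 blue points are above 0, from 0.22 for Hspd1 to 2.94 for Hspa1b, and Dedd2, at −0.49, is the one orange point below 0.

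Of 7 measured genes of the HSF family and its regulators, 3 were called over the 6 times (29.2% of all genes). Limma called 0 of the 7 from ZT9 to ZT13 (5.7% of all genes higher and 5.41% lower), where 3 had an unadjusted p under 0.05, and 1 was called without ZT1 replicate 1, ZT9 replicate 3, ZT13 replicate 1 or ZT21 replicate 1. Ppargc1a, a coactivator induced by fasting that also binds HSF1, was highest at ZT5 with 11.2 ± 0.783 and stood at 6.13 ± 0.309 at ZT13 (SD, n = 3). Hsf4, another factor of the family, went from 6.36 ± 1.46 at ZT9 to 7.05 ± 0.902 at ZT13 (SD, n = 3; limma adjusted p = 0.663). Hdac6, a deacetylase that binds HSF1 and HSP90, went from 15.7 ± 1.74 to 11.9 ± 1.86 (SD, n = 3; limma adjusted p = 0.0626).

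Of 24 HSP70 and HSP40 co-chaperones, 3 were called higher and 1 lower from ZT9 to ZT13 (5.7% and 5.41% of all genes, here and for the next 2 lists), with Hspa2, a testis HSP70, rising from 1.97 ± 0.322 to 3.58 ± 0.906, and Bag4 falling from 40.9 ± 3.21 to 29.6 ± 0.566 (SD, n = 3). Dnajb2, an HSP40 enriched in neurons, rose from 35.5 ± 3.79 to 57.0 ± 4.22, while Hspa13 was at 44.7 ± 0.943 and 51.5 ± 6.99 and was not called (SD, n = 3). Of 13 HSP90 co-chaperones 3 were called higher, including Fkbp5, an immunophilin induced by glucocorticoids, which went from 45.8 ± 23.0 to 119 ± 82.6 (SD, n = 3; limma adjusted p = 0.0434) with 210.3 in ZT13 replicate 1 against 49.7 and 96.5 in the others. Ppid, a cyclophilin, rose from 35.4 ± 4.46 to 49.6 ± 0.574 and Fkbp8 from 188 ± 11.5 to 226 ± 16.3, whereas Nudc was at 43.4 ± 2.58 and 45.7 ± 1.09 and was not called (SD, n = 3). Of 15 genes listed for the cytosolic chaperonin TRiC and its partner prefoldin, 8 were called higher and 0 lower. The steps were small, such as 64.9 ± 7.54 to 88.0 ± 10.8 for Cct3, 99.2 ± 5.40 to 121 ± 5.94 for Cct6a and 72.1 ± 3.49 to 91.65 ± 6.13 for Cct7 (SD, n = 3). Pdcl3, which is on this list but is a subunit of neither, was at 12.5 ± 1.39 and 12.3 ± 0.560. These counts rested on single livers and on scaling. Without ZT13 replicate 1 they were 2 of 24, 1 of 13 and 3 of 15, and without ZT9 replicate 3 they were 2, 1 and 4. Without ZT9 replicate 1 or ZT13 replicate 2, 2 of the 24 were called, and 4 and 5 of the 15. The 13 had 1 call without ZT9 replicate 2. With columns scaled to equal totals, the 13 had 1 call and the 15 had 4. Without ZT5 replicate 3, the counts were 3 of 24, 3 of 13 and 7 of 15.

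Of 14 mitochondrial chaperones and proteases, 4 were called higher (5.7% of all genes) and 1 lower (5.41%) from ZT9 to ZT13. The count of 5 in either direction was 1 without ZT9 replicate 2 or ZT13 replicate 1, 2 without ZT9 replicate 3 or with equal totals, and 3 without ZT9 replicate 1 or ZT13 replicate 2, and 4 without ZT5 replicate 3. Clpx, the unfoldase of the ClpXP protease, was lowest at ZT9 with 56.8 ± 5.41 and highest at ZT1 with 358 ± 13.97 (SD, n = 3). Grpel2, an exchange factor of mitochondrial HSP70, fell from 33.0 ± 8.12 to 20.5 ± 2.74 and Dnaja3, its HSP40, rose from 83.0 ± 3.19 to 98.7 ± 4.86 between ZT9 and ZT13, while Afg3l2, a membrane protease, was at 81.7 ± 2.95 and 74.3 ± 4.96 and was not called (SD, n = 3). Of 15 chaperones of the endoplasmic reticulum (ER), which mainly answer to the unfolded protein response, 13 were called over the 6 times (29.2% of all genes). Of these 15, 5 were called higher from ZT9 to ZT13 (5.7%), 4 without ZT5 replicate 3, and 8 lower from ZT17 to ZT21 (0.99%). From ZT13 to ZT17, 5 were called higher (1.11%), namely Hsp90b1, Pdia3, Pdia4, Pdia6 and Calr. Creld2, among the most responsive of these genes in ER stress, rose from 28.3 ± 14.001 at ZT9 to 79.2 ± 9.70 at ZT13 and reached 109.6 ± 18.9 at ZT17 (SD, n = 3). Manf rose from 80.8 ± 8.05 to 146 ± 5.92 and Hyou1, the HSP110 of the ER, from 177 ± 42.5 to 299.5 ± 16.8 between ZT9 and ZT13, and Sdf2l1 was at 22.2 ± 7.81 and 35.7 ± 5.52 and was not called (SD, n = 3).

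The transcripts of the cold-inducible RNA-binding proteins Cirbp and Rbm3 are known to rise as temperature falls. Body temperature was not used here, and its part in their values was not tested. Cirbp fell from 16.2 ± 1.36 at ZT9 to 7.41 ± 0.878 at ZT13 (SD, n = 3; difference −1.03 ± 0.16 SE in log2, limma adjusted p = 0.000337), and the livers of the 2 times did not overlap. Rbm3 had 49.2 ± 10.2 at ZT9 and 51.8 ± 4.09 at ZT13 (difference 0.09 ± 0.17 SE in log2, limma adjusted p = 0.798), and was lowest at ZT1 with 24.5 ± 1.03 (SD, n = 3).

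The genes whose profile over the 18 livers was most like the mean standardized profile of the 10 were Ube2g2 (Pearson r = 0.953), P4ha1 (0.953), Apba3 (0.927), Dnaja1 (0.917), Alg12 (0.916), Vps37b (0.911), Chordc1 (0.908), Rps7 (0.903), Ndufa8 (0.902) and Atp2a2 (0.898). These values describe likeness over livers that share time points. Ube2g2, a ubiquitin-conjugating enzyme of ER-associated degradation, went from 21.0 ± 2.90 at ZT9 to 46.1 ± 9.98 at ZT13, and P4ha1, a subunit of collagen prolyl hydroxylase, went from 7.64 ± 1.10 to 28.5 ± 5.35 (SD, n = 3). Dnaja1 and Chordc1 are themselves HSF1 targets of the list above.

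Immediate early genes respond within minutes to handling and to feeding. The sum of the 7 measured of 8 was between 232 and 291 at ZT1 and between 70.6 and 146 at the other times, and at ZT13 it was between 85.6 and 97.0. From ZT9 to ZT13, Jun was called higher, with a difference of 0.91 (log2; 5.7% of all genes), and Junb lower, with −1.20 (5.41%), and Atf3 was also higher at an unadjusted p under 0.05. The sum of the hepatocyte markers was between 70876 and 75949 at ZT9 and between 86447 and 95729 at ZT13, without overlap, and 1 of the 7, Hnf4a, was called higher with a difference of 0.35 (log2). Of 27 measured markers of Kupffer cells, sinusoidal endothelium, stellate cells, cholangiocytes and blood cells, 0 were called from ZT9 to ZT13 by limma and 3 had an unadjusted p under 0.05, and their sums overlapped between these times in each list, as for Kupffer cells at 181 to 223 and 165 to 218. From ZT1 to ZT5, where 6 of the 10 genes were lower in all livers, the difference was above 0 in 6 of 6 Kupffer cell markers (median 0.53, log2) and 5 of 5 endothelial markers (0.52), against 7478 of the 14449 genes tested. Limma called 0 of either list, and 2 and 3 had an unadjusted p under 0.05. Sox9, a cholangiocyte marker, was called lower in that step, with −1.18 (log2). The part of these markers in the chaperone values was not tested.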

How the data were processed

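Whole liver polyA RNA of 18 mice was sequenced. Per the study's methods and the labels, the authors removed adapters with Cutadapt, quantified reads with RSEM 1.2.20 on GRCm38, and normalized the estimated counts with limma. The deposited signal is linear, equal to the estimated count plus 0.5 reads, scaled by a factor for each liver. This factor was not library size alone. Column totals still ran from 941088 in ZT5 replicate 1 to 1077230 in ZT17 replicate 2, while median-ratio size factors lay between 0.992 and 1.014. Estimated reads per liver were recovered from the lowest value. With a tolerance of 0.005, between 39.1% and 47.9% of values were whole reads, so count models were not used. Replicate numbers follow the order of the records.

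Values were put on the log2(value + 1) scale and 14449 genes were fitted with limma (version 3.58.1, R 4.3.3, trend allowed; F test over 6 times, adjacent contrasts, and 24 h and 12 h cosine terms, Benjamini-Hochberg adjusted p under 0.05). JTK used periods of 20, 24 and 28 h. CircaN was not rerun, because the constants of its curves are not given in the methods text. Within-time correlations used permutations. The methods were tested on simulated data. Coordinates are from GENCODE on GRCm38, and sequences from RefSeq GRCm38.p6. Other steps ran in Python 3.11.15 (pandas 2.3.3, scipy 1.17.1, numpy 2.4.6).

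The members and lists were chosen with earlier results of these data known. The text names all 10 members, up to 4 genes of each list with the largest ratio of time point means among those called by the F test, Cirbp and Rbm3, and the 10 genes nearest to the mean profile. Dnaja1, Dedd2, Hnf4a, Jun, Junb, Atf3, Sox9 and the genes listed beside a count were named after their values were seen. Alternatives covered the pseudocount, a filter on low values, scaling, the trend, each liver left out, and Hspa1a and Hspa1b summed.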

Additional observations from a re-analysis of the deposited data

How the results depend on the processing

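Of the recomputed counts of the 10 genes called, 231 stayed within 1.5 times of the main count and 8 did not. The contrasts between adjacent times that were called in the 10 genes kept their sign with each liver left out and under the other pseudocount, filter, scalings and trend. With a pseudocount of 0.1, Hspa1a was not called, which left 8 by the F test, 8 for the 24 h term, 7 from ZT9 to ZT13 and 2 from ZT13 to ZT17. Hspd1 was lost by the F test with equal totals or without the trend, and for the 24 h term with equal totals. Its F test call was also lost without ZT5 replicate 2, ZT5 replicate 3, ZT9 replicate 3, ZT17 replicate 1 or ZT17 replicate 2. JTK called 7 of the 10 genes, in place of 4, when equal cosines were taken as 1 group, a setting for which the share of all genes is not given. With 2 units in place of 3, heat shock element letters were in 5 promoters, not 2. With columns scaled to equal totals, counts were 1 gene of the HSF family and 1 HSP90 co-chaperone from ZT9 to ZT13, 1 HSP70 and HSP40 co-chaperone for the 12 h term, 3 (F test) and 5 (24 h) HSP90 co-chaperones, 5 (F test), 5 (24 h) and 4 (ZT9 to ZT13) genes of the TRiC and prefoldin list, and 0 (12 h) and 2 (ZT9 to ZT13) mitochondrial genes, and the Hsp90aa1 ratio was 4.23, not 4.61. Without the trend, from ZT9 to ZT13, 1 HSP90 co-chaperone, 4 genes of the TRiC and prefoldin list and 3 mitochondrial genes were called, with 0 mitochondrial genes for the 12 h term. The causes were not tested.

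With each liver left out in turn, JTK called 2 to 4 of the 10 genes (2 without ZT5 replicate 2), ZT1 to ZT5 called 2 to 4 (4 without ZT9 replicate 2 or ZT13 replicate 3) and ZT21 to ZT1 called 0 to 1 (1 without ZT5 replicate 1, ZT9 replicate 2, ZT13 replicate 2 or ZT13 replicate 3). The Hspa1a ratio ran from 7.66 to 21.7 (without ZT21 replicate 2) and that of Hsp90aa1 from 4.53 to 5.53 (without ZT9 replicate 1). For the 12 h term, 4 to 7 further HSF1 targets and 0 to 1 ER, HSP70 and HSP40, and mitochondrial genes were called. From ZT9 to ZT13, 0 to 1 HSF family genes, 2 to 4 HSP70 and HSP40 co-chaperones, 1 to 4 HSP90 co-chaperones, 3 to 8 genes of the TRiC and prefoldin list and 1 to 5 mitochondrial genes were called. No paired analysis was possible because each liver came from a different animal. The median of all genes from ZT9 to ZT13 moved from −0.003 to −0.048 (log2) with equal totals.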
